A study of Homo sapiens with 6 samples.

Results

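The globin genes encode the protein chains of hemoglobin, and 10 of them were taken from the 58288 genes of the expression table by the Ensembl identifier of their symbol. They are the 5 alpha-like genes HBZ, HBM, HBA2, HBA1 and HBQ1 on chromosome 16 and the 5 beta-like genes HBE1, HBG2, HBG1, HBD and HBB on chromosome 11. All 10 were present in the table, and 8 reached the minimum mean of 1 FPKM (fragments per kilobase of transcript, scaled to the fragments mapped in the library) over the 6 libraries that a gene needed to be tested. HBM and HBB did not and are described by their values alone.

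A hemoglobin molecule pairs alpha-like with beta-like chains around heme, and each cluster lies on its chromosome in the order in which its genes are used during development. The embryo uses HBZ and HBE1, the fetus HBA1 and HBA2 with HBG1 and HBG2, and the adult HBA1 and HBA2 with HBB and a little HBD. K562 is a human erythroleukemic cell line known for making embryonic and fetal hemoglobins and very little of the adult beta chain, and MYB is a transcription factor of immature blood cells whose level is known to influence how much fetal globin erythroid cells make.

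The study asked how the SUMO status of MYB affects the genes it controls. K-562 cells carried stable 3xFLAG-2KR-Myb-HA, in which the lysines that accept SUMO are arginines, or 3xFLAG-ANAA-Myb-HA, in which the motif that binds SUMO noncovalently is mutated. The endogenous MYB was knocked down in both with the siRNA si2992, RNA was taken after 24 h, and both were kept under 200 µg/ml G418. There were 3 libraries of each rescue, 6 in all, from 1 single cell clone per mutant, so mutant and clone cannot be told apart. Differences are given as 2KR-MYB less ANAA-MYB on the log2(FPKM + 1) scale and were tested with limma over the 12634 genes that passed the filter, with Benjamini-Hochberg adjustment and a threshold of 0.01. On this scale the change of a weakly expressed gene comes out too small. P-values measure the spread between these libraries, and an exact permutation test with 3 libraries against 3 cannot go below 0.1. The depth is unknown because FPKM values hold no read counts. The summed FPKM of a library ranged from 579920 to 633662. MYB itself, which includes transcripts of the rescue constructs, ranged from 61.2 to 69.0 FPKM with 2KR-MYB and from 53.6 to 62.0 FPKM with ANAA-MYB. The ranges overlapped, with means 1.16-fold apart (log2 difference 0.21, 95% interval 0.05 to 0.37, limma adjusted p = 0.062), and the part of this difference in the globin values was not tested.

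The erythroid label was checked against 10 marker genes, all of which reached the filter, with a summed level of 444 to 468 FPKM in the 2KR-MYB rescue and 486 to 542 FPKM in the ANAA-MYB rescue. Of the 10, 5 passed the limma threshold, 2 higher and 3 lower with 2KR-MYB, and 1 of the 2, AHSP, reached the filter only through the 2KR-MYB libraries. Of 8 megakaryocyte markers 2 reached the filter and 0 passed the limma threshold, with sums of 5.01 to 6.43 FPKM against 7.67 to 8.99 FPKM and with GP9 and PF4 listed at 0 throughout. Of 4 T cell markers 2 were tested. CD3D was lower with 2KR-MYB, and CD3G stood at 0.406 ± 0.173 against 2.05 ± 0.585 FPKM (SD, n = 3 each) and reached the filter only through the ANAA-MYB libraries (sums over the 4 of 26.7 to 31.5 FPKM against 44.5 to 65.5 FPKM), while CD3E did not exceed 0.531 FPKM in any library. Of 4 monocyte markers only LYZ was tested and it was lower with 2KR-MYB (sums of 10.2 to 13.0 FPKM against 20.0 to 25.1 FPKM), while CD14 did not exceed 0.275 FPKM. Of 4 B cell markers 1 was tested and did not pass (sums of 1.79 to 2.21 FPKM against 2.21 FPKM in each ANAA-MYB library), with MS4A1 at 0. Of 4 fibroblast or epithelial markers 3 were tested and COL1A2 was lower with 2KR-MYB, while COL1A1 stood at 2.13 against 0.553 FPKM and reached the filter only through the 2KR-MYB libraries (sums over the 4 of 50.5 to 53.8 FPKM against 46.6 to 48.0 FPKM). Each of the lists other than the erythroid one had at most 3 tested genes. These are too few to set a share against the 13.0% of all tested genes that passed. The part of these markers in the globin values was not tested. In bulk RNA, fewer cells that make globin and less globin RNA per cell cannot be told apart.

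The near-identity of neighbouring globin genes limits how well their reads can be assigned. HBA1 and HBA2 have coding sequences of 426 bases with 0 differences in the GENCODE release 44 transcripts. Of the 150-base windows of the HBA1 transcript, the read length used, 77.3% occur unaltered in HBA2. HBG1 and HBG2 have coding sequences of 441 bases with 2 differences, and 37.2% of the 150-base windows of HBG1 occur in HBG2. These differences are C227T and C410G, with the HBG1 base first and positions counted from the A of the start codon. The 41 bases around each are shown because only at these 2 coding positions do the GENCODE transcripts differ. The differing base is in capitals. Whether the K562 cells carry these bases was not tested, so whether they assign a read to 1 fetal gene is not known.
HBG1, positions 207 to 247: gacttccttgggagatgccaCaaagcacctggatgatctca
HBG2, positions 207 to 247: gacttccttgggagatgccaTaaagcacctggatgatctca
HBG1, positions 390 to 430: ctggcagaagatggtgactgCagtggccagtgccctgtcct
HBG2, positions 390 to 430: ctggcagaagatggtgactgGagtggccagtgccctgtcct
How the authors' pipeline treated shared reads is not given in the sources used here, so the split within each pair is uncertain. The sum of a pair does not depend on that split, but it would fall if shared reads were dropped or given less weight. Whether they were was not tested, so levels, shares and ratios that use the pairs carry this limit. Some annotations of HBG2 and HBE1 in GENCODE release 44 also run through each other and through the olfactory receptor genes OR51B4, OR51B5 and OR51B2 on the same strand, those of HBD overlap the pseudogene HBBP1, and those of HBZ overlap HBM.

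The order of the levels was the same in both rescues. HBG2 was highest, followed by HBG1, HBE1, HBZ, HBA1, HBA2, HBQ1, HBD, HBB and HBM, and in each rescue the 3 libraries of neighbours in this order did not overlap, except for HBB and HBM. FPKM is per length, so these levels can be set side by side. The places of HBG2 over HBG1 and of HBA1 over HBA2 rest on the uncertain split within each pair.

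**Figure D1:**
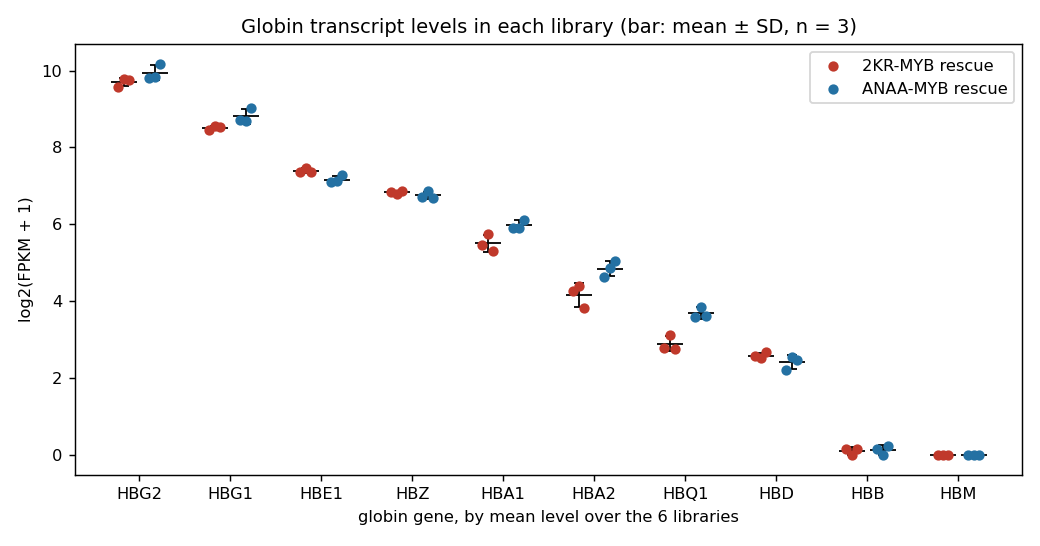
Level of each globin gene on log2(FPKM + 1) in each library (points), with the mean and SD of each rescue (bars, n = 3), genes ordered by mean level. HBG2 sits highest in both rescues and HBM at 0, and the order is the same in red (2KR-MYB) and blue (ANAA-MYB).

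Of the alpha-like genes, the embryonic HBZ was the most abundant and was nearly equal between the rescues, whereas the fetal and adult HBA1 and HBA2 and the theta gene HBQ1 stood lower in the 2KR-MYB rescue in every library. HBZ (ENSG00000130656, GRCh38, chr16:152644-154503) measured 115, 109 and 115 FPKM with 2KR-MYB against 104, 116 and 101 FPKM with ANAA-MYB. The second ANAA-MYB library was the highest of all 6, so the rescues overlapped. The log2 difference was 0.08 (standard error 0.059, 95% interval -0.06 to 0.21, limma adjusted p = 0.37), and it was 0.13 without the second and 0.04 without the third ANAA-MYB library.

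HBA2 (ENSG00000188536, chr16:172876-173710) encodes the same alpha chain as its neighbour HBA1 and stood at 18.4, 20.1 and 13.2 FPKM with 2KR-MYB and at 24.0, 28.0 and 32.3 FPKM with ANAA-MYB. All 3 ANAA-MYB libraries were above the highest 2KR-MYB library. The log2 difference was -0.69 (standard error 0.16, 95% interval -1.04 to -0.33), and the limma adjusted p of 0.014 missed the threshold. HBA1 (ENSG00000206172, chr16:176680-177522) stood at 43.2, 52.6 and 38.7 FPKM with 2KR-MYB and at 59.2, 58.8 and 68.7 FPKM with ANAA-MYB. Here too the rescues lay fully apart, with the second 2KR-MYB library closest to the others. The log2 difference of HBA1 was -0.47 (standard error 0.11, 95% interval -0.72 to -0.22, limma adjusted p = 0.016). Without that library it was -0.59 and passed the threshold (limma adjusted p = 0.0059).

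HBQ1 (ENSG00000086506, chr16:180459-181179), the theta gene at the far end of the cluster whose protein has no settled role, was the only globin gene past the threshold. It stood at 5.89, 7.69 and 5.84 FPKM with 2KR-MYB and at 11.0, 13.6 and 11.4 FPKM with ANAA-MYB. The second library was the highest of each rescue, and the rescues lay well apart, at means of 6.47 ± 1.05 and 12.0 ± 1.40 FPKM (SD, n = 3 each). HBQ1 was thus 1.85-fold higher in the ANAA-MYB rescue, with a log2 difference of -0.80 (standard error 0.11, 95% interval -1.06 to -0.54, limma adjusted p = 0.0020). The call was lost with no filter on low values (limma adjusted p = 0.016 among the 28536 genes then tested).

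HBM (ENSG00000206177, chr16:165978-166764), the mu gene, which erythroid cells transcribe at low level, was listed at 0 in all 6 libraries. An exact 0 in a table of FPKM can also be an estimate that failed, and its annotation overlaps that of HBZ.

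Of the beta-like genes, the embryonic HBE1 stood higher in the 2KR-MYB rescue by 1.17-fold, while in the ANAA-MYB rescue the fetal HBG1 stood 1.24-fold and HBG2 1.19-fold higher. HBE1 (ENSG00000213931, chr11:5268345-5269945) stood at 163, 177 and 163 FPKM with 2KR-MYB and at 136, 139 and 154 FPKM with ANAA-MYB. The 3 2KR-MYB libraries were all above the highest ANAA-MYB library. The log2 difference was 0.23 (standard error 0.062, 95% interval 0.09 to 0.37, limma adjusted p = 0.028). It missed the threshold as deposited and passed it under each of the 4 rescalings of the libraries that were tried (limma adjusted p from 0.0051 to 0.0072).

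HBG2 (ENSG00000196565, chr11:5253188-5254781) stood at 767, 876 and 861 FPKM with 2KR-MYB and at 902, 919 and 1161 FPKM with ANAA-MYB. The rescues did not overlap, but the third ANAA-MYB library was far above the other ANAA-MYB libraries. The log2 difference was -0.24 (standard error 0.10, 95% interval -0.48 to -0.01, limma adjusted p = 0.12), and without that library it was -0.13. HBG1 (ENSG00000213934, chr11:5248269-5249857) stood at 350.4, 375 and 367 FPKM with 2KR-MYB and at 421, 411 and 521 FPKM with ANAA-MYB. As for HBG2, the third ANAA-MYB library was the highest, and the rescues again did not overlap. The log2 difference of HBG1 was -0.30 (standard error 0.089, 95% interval -0.51 to -0.09, limma adjusted p = 0.041), and it was -0.19 without that library.

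The adult genes HBD and HBB stood lowest on the beta-like side. HBD (ENSG00000223609, chr11:5232838-5234483), which encodes the minor adult delta chain, stood at 4.98, 4.74 and 5.38 FPKM with 2KR-MYB and at 3.65, 4.90 and 4.60 FPKM with ANAA-MYB. The rescues overlapped, and the log2 difference of 0.17 (standard error 0.10, 95% interval -0.06 to 0.41) had a limma adjusted p of 0.25. Without the first ANAA-MYB library, the lowest of all 6, the difference of HBD was 0.07. HBB (ENSG00000244734, chr11:5225464-5227071), which encodes the adult beta chain, stood at 0.124 and 0.127 FPKM in the first and the third 2KR-MYB library and at 0.109 and 0.189 FPKM in the first and the third ANAA-MYB library, and it was listed at 0 in the second library of each. No difference in HBB was detectable at these levels.

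In all, 1 of 8 tested globin genes (12.5%) passed the limma threshold, beside 13.0% of all 12634 tested genes, and that gene was lower with 2KR-MYB, as were 7.42% of all tested genes. At an adjusted p under 0.05 the count was 5 of 8 (62.5%), beside 26.9% of all tested genes. Of these 5, HBA1, HBA2, HBQ1 and HBG1 were lower with 2KR-MYB, a call made for 14.9% of all tested genes, and HBE1 was higher. The libraries of the rescues did not overlap for 6 of 8 globin genes (75.0%), beside 44.9% of all tested genes. In 5 of these 6, HBA1, HBA2, HBQ1, HBG1 and HBG2, every 2KR-MYB library was the lower one, beside 24.8% of all tested genes. The exact two-sided permutation p of these 6 genes was 0.1, the smallest that 3 libraries against 3 allow, and it was 0.4 for HBZ and 0.2 for HBD. The median log2 difference was -0.27 over the 8 tested globin genes and -0.02 over all tested genes. All these counts take the near-identical genes singly, though the split of their reads is uncertain. With each pair summed, the log2 difference was -0.54 for HBA1 with HBA2 (limma adjusted p = 0.013). For HBG1 with HBG2 it was -0.26 (limma adjusted p = 0.090), which was not under 0.05. HBQ1 alone of the 6 globin entries then tested passed the threshold of 0.01.

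Summed, the 10 globin genes came to 1467, 1623 and 1569 FPKM with 2KR-MYB against 1661, 1689 and 2054 FPKM with ANAA-MYB. The sums lay apart, but as a share of all FPKM of a library they overlapped, at 0.262% ± 0.00837 with 2KR-MYB and 0.292% ± 0.0291 with ANAA-MYB (SD, n = 3 each). In FPKM as deposited, not as a share of the library, both sides of hemoglobin had lower sums with 2KR-MYB in every library. The alpha-like sum was 181 ± 8.12 against 209 ± 9.62 FPKM, and the beta-like sum was 1372 ± 77.2 against 1592 ± 215 FPKM (SD, n = 3 each). The ratio between the sides was alike in both rescues, whose libraries overlapped. Beta-like RNA stood at 7.57 ± 0.506 times alpha-like RNA with 2KR-MYB and at 7.60 ± 0.917 times with ANAA-MYB (SD, n = 3 each).

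Within each side, by contrast, the embryonic gene held a larger share in the 2KR-MYB rescue in every library. HBZ made up 62.9%, 57.5% and 66.6% of alpha-like FPKM in the 2KR-MYB libraries and 52.5%, 53.5% and 47.4% in the ANAA-MYB libraries. HBA1 and HBA2 together made up 34.1% ± 4.24 with 2KR-MYB and 43.1% ± 3.68 with ANAA-MYB (SD, n = 3 each), also without overlap, and HBQ1 made up 3.56% ± 0.442 and 5.71% ± 0.510. On the beta-like side HBE1 made up 12.7%, 12.3% and 11.7% with 2KR-MYB and 9.28%, 9.42% and 8.35% with ANAA-MYB. The fetal pair HBG1 and HBG2 made up the remainder apart from a trace of HBD and HBB, at 87.4% ± 0.501 and 90.7% ± 0.606 (SD, n = 3 each). These shares are ratios within a library, so a rescaling of whole libraries leaves them as they are. They are descriptions with no test, and the smallest exact permutation p would again be 0.1.

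**Figure D2:**
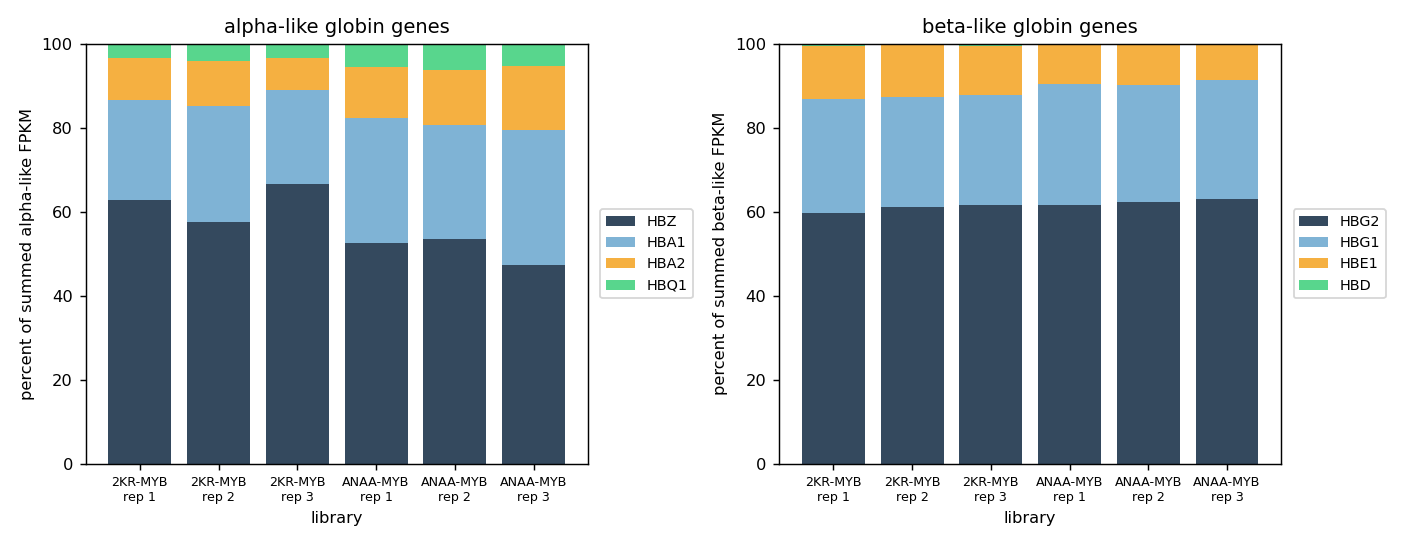
Share of each gene in the summed FPKM of the alpha-like genes (left) and of the beta-like genes (right), in percent, with 1 stacked bar for each library. HBZ fills 57.5% to 66.6% of the left bars with 2KR-MYB and 47.4% to 53.5% with ANAA-MYB, and HBE1, the band at the top right, is wider in the 2KR-MYB bars.

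The same values can be written as ratios between embryonic and fetal or adult RNA, which restate the shares and add no further support. HBG1 and HBG2 together stood at 6.87, 7.08 and 7.54 times HBE1 in the 2KR-MYB libraries and at 9.75, 9.58 and 10.9 times in the ANAA-MYB libraries. HBZ stood at 1.86, 1.50 and 2.22 times HBA1 and HBA2 together with 2KR-MYB and at 1.25, 1.33 and 1.00 times with ANAA-MYB. Neither ratio overlapped between the rescues. Within the near-identical pairs the split did overlap, with HBG2 at 69.6% ± 0.820 and 68.8% ± 0.506 of HBG1 and HBG2, and HBA1 at 72.4% ± 2.22 and 69.0% ± 1.89 of HBA1 and HBA2 (SD, n = 3 each, 2KR-MYB first).

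The pattern of HBG2 over the 6 libraries was set beside those of 9305 genes whose mean was 5 FPKM or more, by the root mean square difference of centred log2(FPKM + 1) values. The 5 closest were RRP7A (0.038), USP16 (0.046), MPHOSPH10 (0.046), HBG1 (0.047) and FAM172A (0.047). The other globin genes were much further down this order, with HBA1 at rank 3787, HBZ at 6909, HBE1 at 7234, HBA2 at 8278 and HBQ1 at 8652. This likeness is a description over 6 libraries.

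Of 32 genes known to regulate globin transcription or fetal to adult switching, 30 were tested and 6 passed the limma threshold (20.0%, beside 13.0% of all tested genes), 5 of them lower and 1 higher with 2KR-MYB. The median log2 difference of the 30 was -0.03. KLF1, an activator of adult beta globin and other erythroid genes, was lower with 2KR-MYB, at 19.2 ± 1.44 against 30.7 ± 0.698 FPKM (SD, n = 3 each, log2 difference -0.65, limma adjusted p = 0.00033). GATA1, the master regulator of the erythroid lineage, stood at 78.2 ± 2.96 against 107 ± 3.44 FPKM (log2 difference -0.45, limma adjusted p = 0.00050), and NFE2, which binds the beta-globin locus control region, at 69.1 ± 3.48 against 91.7 ± 3.60 FPKM (log2 difference -0.40, limma adjusted p = 0.0014). KLF1, GATA1 and NFE2 passed the threshold in all 17 alternative fits. BACH1, a heme-regulated repressor at NFE2 sites, was higher with 2KR-MYB, at 25.1 ± 0.943 against 20.0 ± 0.414 FPKM (log2 difference 0.32, limma adjusted p = 0.0031), in 13 of 17 alternatives. GFI1B, a repressor of transcription that acts in erythroid and megakaryocytic cells, was lower with 2KR-MYB. It stood at 24.7 ± 0.842 against 34.4 ± 4.06 FPKM (limma adjusted p = 0.0048) and passed in 12 of 17 alternatives.

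Of 20 genes for hemoglobin assembly and heme supply, 19 were tested and 4 passed, 2 in each direction. This was 21.1%, beside 13.0% of all tested genes, and the median log2 difference of the 19 was 0.03. SLC25A37, the mitochondrial iron importer mitoferrin-1, was lower with 2KR-MYB, at 45.9 ± 0.919 against 74.4 ± 1.34 FPKM (SD, n = 3 each, log2 difference -0.69, limma adjusted p = 4.7e-05). AHSP, the chaperone of free alpha globin, is counted among the 4 and stood at 2.77, 3.19 and 2.47 FPKM against 0.542, 0.537 and 1.19 FPKM. Its mean with ANAA-MYB was 0.756 FPKM, so it reached the filter only through the rescue in which it is high, and it is given by its values alone. The transferrin receptor gene TFRC was lower with 2KR-MYB (log2 difference -0.29, limma adjusted p = 0.0078) and ALAD, an enzyme of heme synthesis, was higher (log2 difference 0.27, limma adjusted p = 0.0083), but these passed in 6 and 9 of 17 alternatives.

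Neighbours of the globin genes were compared in the same fit. Of the 5 relatives within the clusters, HBA3 had no row under its symbol, HBAP1 and HBZP1 were listed at 0, and HBBP1 and BGLT3 were tested. HBBP1, a transcribed beta-like pseudogene between the fetal and adult genes, stood at 5.68, 5.19 and 5.80 FPKM with 2KR-MYB and at 8.06, 7.92 and 7.30 FPKM with ANAA-MYB. The rescues lay apart, and HBBP1 passed the threshold (log2 difference -0.42, limma adjusted p = 0.0041) and did so in 9 of 17 alternatives. The noncoding RNA gene BGLT3 did not pass (limma adjusted p = 0.61).

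Of 10 genes flanking the alpha-like cluster, 8 were tested and 2 passed (25.0%, beside 13.0% of all tested genes). Both were lower with 2KR-MYB, a call made for 7.42% of all tested genes. They were the DNA glycosylase gene MPG (log2 difference -0.37, limma adjusted p = 0.0032) and FAM234A (log2 difference -0.25, limma adjusted p = 0.0063), which passed in 10 and 5 of 17 alternatives. Of 16 genes flanking the beta-like cluster, 9 were tested and 3 passed (33.3%, beside 13.0% of all tested genes). The olfactory receptor gene OR51B4, whose row overlaps annotations of HBG2 and HBE1, stood at 34.5, 34.9 and 36.5 FPKM with 2KR-MYB and at 45.1, 46.1 and 45.3 FPKM with ANAA-MYB (log2 difference -0.36, limma adjusted p = 0.0010). TRIM6 and TRIM5, genes of innate immunity beyond the olfactory receptor genes, were both higher with 2KR-MYB, with log2 differences of 0.77 and 0.64 (limma adjusted p = 0.00025 and 0.00026).

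**Figure D3:**
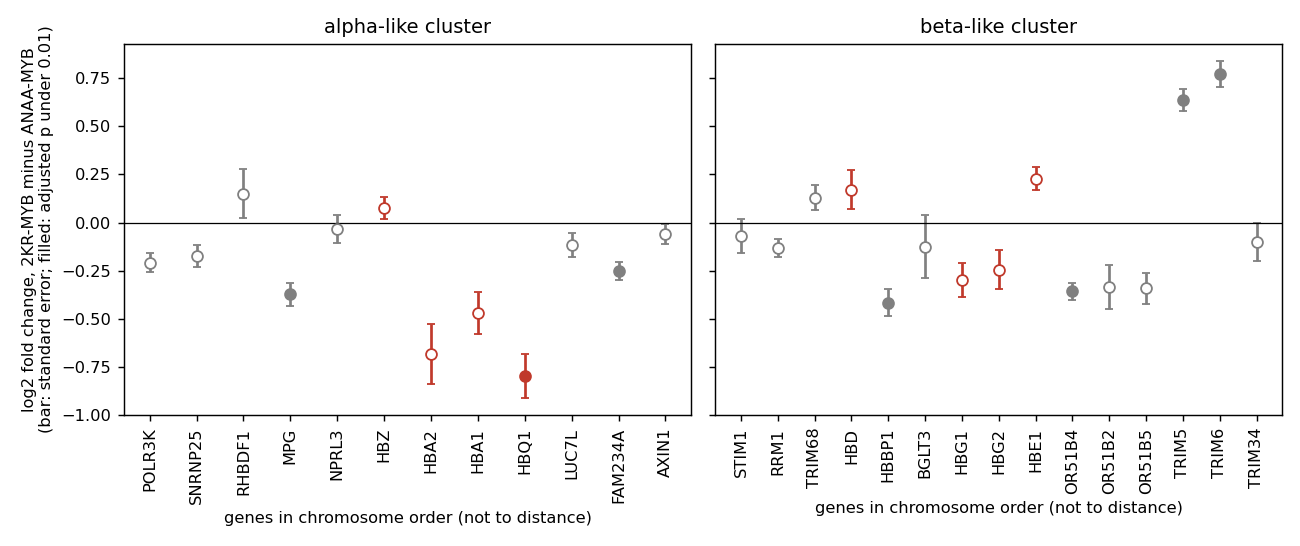
Log2 difference (2KR-MYB minus ANAA-MYB) with its standard error for the tested globin genes (red) and their tested neighbours (grey), in chromosome order and not to distance, with filled points past the limma adjusted p of 0.01. HBQ1 is the filled red point on the left, and on the right TRIM5 and TRIM6 lie at 0.64 and 0.77 while OR51B4 and HBBP1 lie below 0.

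RefSeq promoters (GRCh38.p14), taken as 250 bases before to 50 bases after the gene's start, were at hand for 2 of 10 globin genes. These are HBD, read at a low level, and HBM, listed at 0, and they are shown so that the start of a detected and of an undetected globin gene can be set side by side. Capitals mark matches on either strand to 6 motifs. CCAAT is a common promoter box. The erythroid factor KLF1 binds CACCC. Factors of the GATA family bind GATAA, and the repressor BCL11A binds TGACCA. A box near the start that resembles the TATA element reads ATAAAA. The core letters of a MYB element are AACNG.
HBD, chr11:5234434-5234733, minus strand: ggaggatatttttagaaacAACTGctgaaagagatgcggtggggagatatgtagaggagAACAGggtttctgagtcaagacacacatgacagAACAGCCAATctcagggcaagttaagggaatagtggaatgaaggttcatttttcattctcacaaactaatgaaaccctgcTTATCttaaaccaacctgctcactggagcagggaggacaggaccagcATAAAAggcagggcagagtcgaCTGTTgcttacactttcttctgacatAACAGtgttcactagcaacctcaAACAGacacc
HBM, chr16:165728-166027, plus strand: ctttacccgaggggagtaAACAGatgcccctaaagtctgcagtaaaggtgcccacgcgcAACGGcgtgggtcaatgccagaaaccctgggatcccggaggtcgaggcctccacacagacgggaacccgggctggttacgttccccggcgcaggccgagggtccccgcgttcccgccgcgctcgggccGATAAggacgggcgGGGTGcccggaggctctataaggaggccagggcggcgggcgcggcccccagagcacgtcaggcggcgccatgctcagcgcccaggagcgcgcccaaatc
The HBD window held 1 CCAAT, at position -153 from the start and directly after an AACNG match, 1 ATAAAA, 1 GATAA and 6 AACNG matches, and 0 matches to CACCC and TGACCA. The HBM window held 1 CACCC, 1 GATAA and 2 AACNG matches, and 0 to the others. Of all 35116 RefSeq promoters of this length, 34.6% held CCAAT, 59.9% CACCC, 22.7% GATAA, 10.7% TGACCA, 16.0% ATAAAA and 77.2% AACNG. A match says only that these letters are present.

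**Figure D4:**
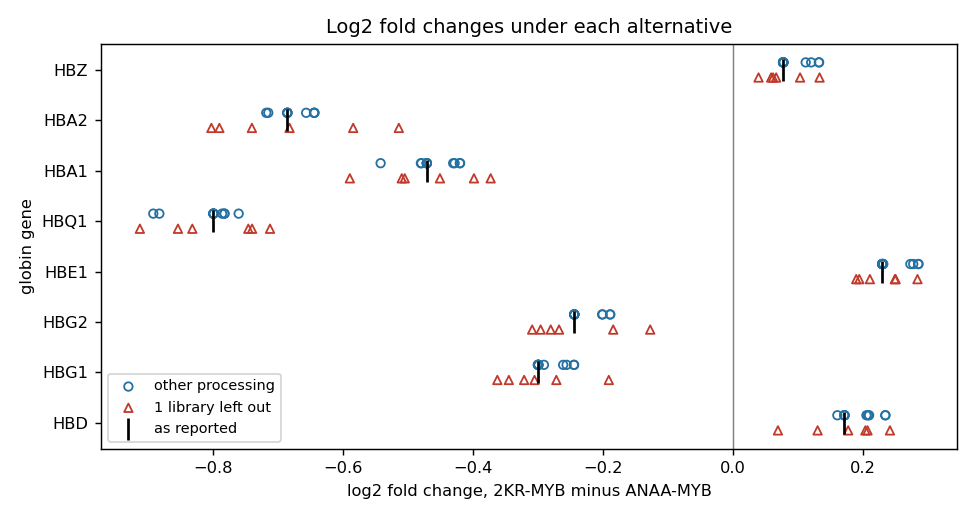
Log2 difference of each tested globin gene as reported (black bar), under other processing (circles) and with 1 library left out (triangles). Each gene keeps to its side of 0 in all of them, and HBG2 comes closest among the genes below 0, at -0.13 without the third ANAA-MYB library.

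Over these alternatives none of the 8 tested globin genes turned in direction. The log2 difference ranged from -0.91 to -0.71 for HBQ1, from -0.80 to -0.51 for HBA2, from -0.59 to -0.37 for HBA1, from -0.36 to -0.19 for HBG1, from -0.31 to -0.13 for HBG2, from 0.19 to 0.28 for HBE1, from 0.04 to 0.13 for HBZ and from 0.07 to 0.24 for HBD. The limma adjusted p of HBA2 ranged from 0.011 to 0.070 and that of HBG2 from 0.066 to 0.30. Neither passed the threshold of 0.01 in any alternative fit, while at a threshold of 0.05 HBA2 passed as reported.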

How the data were processed

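RNA of the 6 libraries was prepared with a stranded poly(A) kit. Per the labels, the authors used bcl2fastq 2.18.0.12, Trimmomatic 0.36, TopHat2 2.1.1, Cufflinks and Cuffdiff 2.2.1 with GRCh38, and they deposited FPKM per gene and library. Not given in the sources used here are the annotation, the strand setting and how libraries were scaled to each other. The 12 other columns of per-sample values were not used, so nothing is set against control, knockdown or other rescues.

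Of 58288 gene IDs, 55854 matched a symbol. A gene needed a mean of 1 FPKM to enter the fit on log2(FPKM + 1), made by limma 3.58.1 under R 4.3.3 (empirical Bayes with trend, no block) after a test on simulated data. Positions and promoter sequences are from RefSeq. Overlaps and the transcript sequences of the near-identical pairs are from GENCODE. Figures were drawn with matplotlib 3.10.9 in Python 3.11.15.

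The members and lists were chosen with earlier results of these data known. Named genes are all members, up to 5 genes per list past the threshold by smallest adjusted p (some cell markers, OR51B5, OR51B2, BGLT3, BCL11A and the globin-fold genes outside the clusters were named after their values were seen), and the 5 genes closest to HBG2. Alternatives were pseudocounts of 0.1 and 0.01, no filter, a mean of at least 5 FPKM, 4 rescalings (upper quartile, quantile, a library sum of 1000000 with and without globin genes), robust empirical Bayes, a replicate block, summed near-identical pairs, a threshold of 0.05, and each library left out.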

Additional observations from a re-analysis of the deposited data

How the results depend on the processing

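None of the 8 tested globin genes turned in direction. Genes past the threshold fell from 1642 to 942 with no filter on low values, to 1089 with the replicate block and to between 831 and 1139 with 1 library left out, and came to 3402 at a threshold of 0.05. Globin genes past it numbered 1 as reported (HBQ1), 0 with no filter (limma, with 5 of 9 at an unadjusted p under 0.05), 5 at a threshold of 0.05, 2 (HBQ1 and HBE1) under upper quartile, quantile and both library-sum scalings, and 1 to 2 with 1 library left out, where HBA1 joined without the second 2KR-MYB library. Of all genes past the threshold, 42.9% were higher with 2KR-MYB as deposited, 54.5% after upper quartile, 49.6% after quantile and 55.8% after library-sum scaling, or 55.6% with the globin genes kept out of that sum. With the replicate block the globin count stayed at 1. Same-numbered libraries did not deviate together across genes (Pearson r from -0.052 to -0.0026, and 0 of 6 libraries closest to its own number). Whether they were handled together, or share an effect in some genes, was not tested. The difference in the globin share of FPKM was -0.030 percentage points and lay between -0.043 and -0.014 with 1 library left out. Unknown depth limits HBB and HBM most.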

Other observations

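The 4 globin-fold genes outside the clusters were close to silent. Myoglobin (MB), cytoglobin (CYGB), neuroglobin (NGB) and androglobin (ADGB) all fell under the filter, with a highest value in any library of 0.467 FPKM, for CYGB in the second 2KR-MYB library, and NGB was listed at 0 in all 6. The fetal globin repressor gene BCL11A was listed at 0 in 5 libraries and at 0.00469 FPKM in the other. OR51B5, whose annotation overlaps those of HBG2 and HBE1, stood at 91.0 ± 1.74 FPKM with 2KR-MYB and 116 ± 13.9 FPKM with ANAA-MYB (SD, n = 3 each, log2 difference -0.34, limma adjusted p = 0.016), which missed the threshold.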
